A study of Mus musculus with 4 samples.

Results

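Chromatin accessibility was compared at 10 genes that carry the signal of Toll-like receptors from the receptor complex to the first kinases in the cytoplasm. These are the co-receptor genes Cd14 and Ly96, the adaptor genes Myd88, Tirap and Ticam1, the kinase genes Irak4, Irak1, Irak2 and Irak3, and the ubiquitin ligase gene Traf6. A region was counted to a gene where the authors named that gene as its nearest, which gave 34 of the 80929 regions in the value tables and 10 of the 26614 gene names. All 10 genes had at least 1 region, from 1 each for Tirap, Irak1 and Irak3 to 10 for Irak2. ATAC-seq reads open chromatin through the sites where a transposase can cut and tag DNA. All 4 libraries came from RAW264.7, an established mouse macrophage line, 48 h after treatment: 2 are titled Gel and 2 are titled CuNZ@Gel, the latter being the nanozyme hydrogel of the series title. The treatment label is identical in all 4 and names CuNZ@Gel, so what the Gel cells were given is known from the titles alone. No label ties the replicates to separate cultures, so the p-values rest on differences among 4 libraries that may be technical repeats. The comparison asks which of the regions near these genes were more or less open in the CuNZ@Gel libraries than in the Gel libraries.

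Toll-like receptors detect microbial products such as lipopolysaccharide. CD14, the product of Cd14, hands lipopolysaccharide to TLR4, and MD2, the product of Ly96, binds it as part of the receptor complex. Active receptors bind MyD88, for some receptors through the bridging adaptor TIRAP, or TRIF, the product of Ticam1. MyD88 gathers the kinase IRAK4, which activates IRAK1 and IRAK2, and these engage the ubiquitin ligase TRAF6 upstream of the kinases that activate NF-kB. IRAK3, also called IRAK-M, has no effective kinase activity and is known in macrophages as a brake on this signal.

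Of the 10 genes, 8 had an entry in the RefSeq table of promoter sequences (GRCm38.p6), with 11 windows of the 250 bases before an annotated start. These windows were searched on both strands for 4 motifs, matches of which may share letters: TGANTCA for AP-1, GGGANTTTC for NF-kB, GAGGAA for the core of PU.1, a factor that macrophages depend on, and TTCNNGAA for STAT factors. GAGGAA stood in 2 of the 11 windows, those of Ticam1 and Traf6, against 23.2% of the 32851 windows of all genes. No member window held any of the other motifs, which stood in 6.75%, 0.94% and 7.17% of all windows respectively. The 2 windows of Irak1 overlap, as do the 2 of Tirap, so the 11 windows are not all separate sequences. The median window of all genes had 52.4% G and C and 6 CpG sites. The windows of Irak3 are shown because it was the only member whose summed accessibility rose, and those of Ticam1 and Traf6 because they hold the PU.1 letters. They come from the minus strand at chr10:120201598-120201847 and chr10:120202131-120202380 for Irak3 and at chr17:56276768-56277017 for Ticam1, and from the plus strand at chr2:101678170-101678419 for Traf6, all in GRCm38.p6. Each is written 5′ to 3′ toward the start, and capitals mark GAGGAA on the written strand.
Irak3 promoter 1: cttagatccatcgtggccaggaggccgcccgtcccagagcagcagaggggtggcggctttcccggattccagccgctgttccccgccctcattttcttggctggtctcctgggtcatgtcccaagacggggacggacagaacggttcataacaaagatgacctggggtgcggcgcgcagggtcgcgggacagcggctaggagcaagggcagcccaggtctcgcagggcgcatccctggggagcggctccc
Irak3 promoter 2: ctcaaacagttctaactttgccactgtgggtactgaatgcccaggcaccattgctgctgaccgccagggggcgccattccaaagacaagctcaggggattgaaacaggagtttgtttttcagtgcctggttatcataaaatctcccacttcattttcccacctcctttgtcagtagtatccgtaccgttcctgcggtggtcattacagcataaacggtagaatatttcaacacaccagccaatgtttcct
Ticam1 promoter 1: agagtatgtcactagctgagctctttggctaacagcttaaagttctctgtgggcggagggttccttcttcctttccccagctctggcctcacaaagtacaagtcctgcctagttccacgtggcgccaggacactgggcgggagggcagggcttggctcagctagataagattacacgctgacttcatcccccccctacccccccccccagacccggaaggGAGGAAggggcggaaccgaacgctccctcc
Traf6 promoter 1: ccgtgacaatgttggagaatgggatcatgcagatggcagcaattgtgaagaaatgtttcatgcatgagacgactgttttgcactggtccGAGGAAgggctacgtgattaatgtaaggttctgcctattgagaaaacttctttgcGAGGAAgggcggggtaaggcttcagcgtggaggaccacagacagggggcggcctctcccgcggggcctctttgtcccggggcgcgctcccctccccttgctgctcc
Irak3 has a first window with 66.4% G and C and 19 CpG sites and a second with 47.6% and 6, so its 2 annotated starts lie in unlike sequence. The Ticam1 window has 59.6% G and C, 9 CpG sites and 1 copy of GAGGAA. In the Traf6 window these values are 56.4%, 13 CpG sites and 2 copies. A match of letters is a description of the window and shows no binding. The deposited regions are in another build, GRCm39, so none of them was placed on or off these windows, or in a promoter, exon or intron.

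Depth differed between the groups, with 18842296 and 17916056 reads in regions for Gel replicates 1 and 2 but 7439710 and 10236196 for CuNZ@Gel replicates 1 and 2. Divided by the background pileup that the peak lists imply, these reads came to 18.8 and 18.6 (in 1000000 reads) for Gel, but to 6.37 and 8.53 for CuNZ@Gel. This difference and the treatment cannot be told apart. Pearson's r of the deposited values across regions was 0.986 within Gel, 0.961 within CuNZ@Gel and from 0.918 to 0.921 for libraries of unlike groups. Values are given as RPM, the reads in a region per 1000000 effective reads as the authors scaled them, and a change is the CuNZ@Gel mean minus the Gel mean of log2(RPM + 1), a scale that understates changes of low regions. The 7 macrophage marker genes Csf1r, Adgre1, Spi1, Lyz2, Cd68, Itgam and Fcgr1 all had regions, with summed RPM of 938 to 939 in Gel and 794 in both CuNZ@Gel libraries. With the deposited scaling 4 were called lower, Itgam was called higher (0.17), and Lyz2 and Fcgr1 were not called. After the trend with level was removed (loess, described below), 4 were called higher and 0 lower, with a median change of 0.18. Of all genes, 36.1% were lower and 20.5% higher, and after loess 15.9% and 20.2%. The summed RPM of 4 fibroblast markers was 41.5 to 43.0 in Gel and 47.1 to 49.2 in CuNZ@Gel, that of 3 T cell markers 29.3 to 31.2 and 24.3 to 34.0, and that of 3 B cell markers 8.16 to 8.54 and 8.62 to 12.6. Of the fibroblast markers, Col3a1 rose by 0.99 (adjusted p = 0.00152) from 1.75 and 2.66 RPM to 5.21 and 5.42 RPM, and Prrx1 by 0.79 (adjusted p = 0.00548) from 2.57 and 2.72 RPM to 5.46 and 5.16 RPM, while Col1a1 and Pdgfra did not pass. After loess these rises were 0.63 for Col3a1 and 0.35, no longer called, for Prrx1. The median change of the 4 was 0.53. Of the T cell markers, Cd4 was called lower (-0.62, and -0.48 after loess) and Cd8a higher (0.71, and 0.13 and not called after loess). No marker gene was at 0 in any library, and the part of these markers in the results was not tested.

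The summed accessibility of 8 of the 10 genes was lower in CuNZ@Gel and that of Irak3 was higher, while Irak1 did not pass the test (limma, adjusted over 25900 genes, threshold 0.05). Among all genes tested, 36.1% were called lower and 20.5% higher. In all 10 genes the values of the groups did not overlap, as in 76.9% of all genes. The median change of the 10 genes was -0.46, against -0.10 for all genes. In bulk libraries, fewer cells with an open region and a less open region in each cell cannot be told apart.

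**Figure D1:**
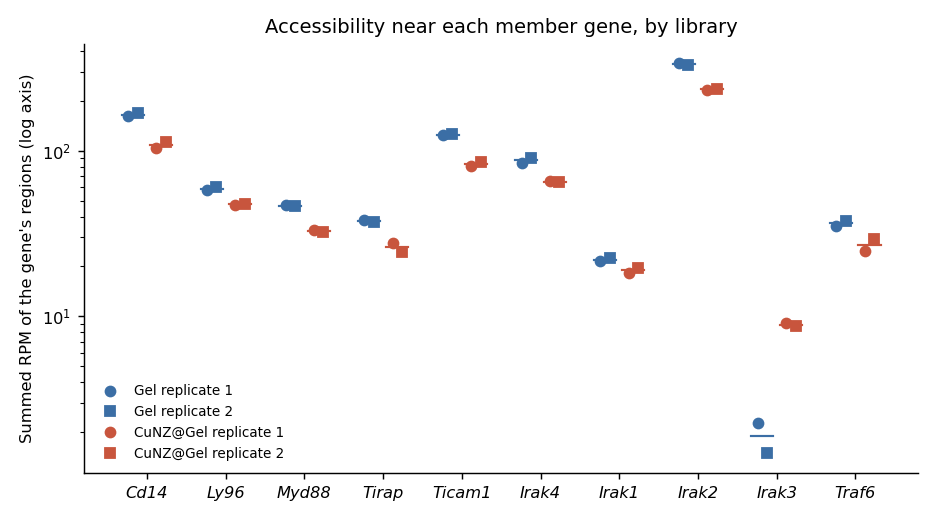
Summed RPM of each gene's regions (log axis) in the 2 Gel libraries (blue) and the 2 CuNZ@Gel libraries (red), with short lines at the group means. With the deposited scaling, in every gene but Irak3 both CuNZ@Gel points lie below both Gel points, and Irak3 rises from 2.274 and 1.485 to 9.09 and 8.71 RPM.

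Across all regions the change grew more negative with the level of a region. In the highest decile of all regions by mean level the median change was -0.60 and 86.9% were called lower, whereas in the lowest decile the median was 0.35 and 0.740% were called lower. When this trend was removed by cyclic loess, 15.9% of all genes were called lower and 20.2% higher, and of the 10 genes Myd88 at -0.27 (adjusted p = 0.0245) and Traf6 at -0.33 (adjusted p = 0.0196) stayed lower and Irak3 stayed higher. The other falls were no longer called and the median of the 10 genes was -0.10. The housekeeping genes Actb, which encodes beta-actin, and Polr2a, which encodes the largest subunit of RNA polymerase II, changed by -0.78 and -0.83 with the deposited scaling and by -0.13 and -0.09 after loess. Both therefore fell more than any of the 8 lower members with the deposited scaling. The direction also depends on the scaling, since scaling to the genome background pileup moved the median of all genes from -0.10 to -1.06 and scaling to total reads in regions moved it to 0.15. Irak3 stayed above 0 and 7 genes stayed below 0 under each of these scalings, although Ly96, Tirap, Traf6 and Irak4 lost their calls with total reads. Irak4 turned to 0.094 after loess, and Irak1 to 0.019 after loess and 0.063 with total reads. The single region of Irak3 was listed through CuNZ@Gel peaks alone, which selects toward a higher value in that group. Each scaling used that same listing, so the agreement among scalings is no independent check of its rise.

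Per length of region, the genes differed in how open they were. In the Gel libraries the mean was highest at Ticam1 with 53.8 RPM per kb, followed by Irak4 with 51.9, Irak2 with 47.6, Myd88 with 39.8 and Cd14 with 38.5. Tirap had 29.7 RPM per kb, Irak1 20.4, Traf6 16.6, Ly96 14.9 and Irak3 7.31. Of the neighbours in this order, only Ticam1 and Irak4 had overlapping ranges over the 2 Gel libraries, 53.4 to 54.1 and 50.5 to 53.5 RPM per kb. In CuNZ@Gel the order began with Irak4 at 38.8 RPM per kb and Ticam1 at 35.8, and Irak3 came next at 34.6, ahead of Irak2 at 33.6. Irak3 thus went from the lowest of the 10 levels to one whose range, 33.9 to 35.4 RPM per kb, overlapped with those of Ticam1, 34.7 to 36.9, and Irak2, 33.3 to 33.9. Its level comes from a single region of 257 bases, whereas the regions of Ticam1 and Irak2 cover 2329 and 6996 bases. The Irak3 region was listed through CuNZ@Gel peaks alone, which selects toward a higher value in that group. Its change of rank is therefore no even comparison with the other genes. The order of the other genes in CuNZ@Gel was Myd88 at 27.9, Cd14 at 25.4, Tirap at 20.7, Irak1 at 17.5, Traf6 at 12.3 and Ly96 at 12.0 RPM per kb, and the ranges of Traf6 and Ly96 overlapped.

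At the level of single regions, all 34 passed the filter on low reads, and 18 were called lower, 5 higher and 11 neither (limma, adjusted over 77014 regions). Of all regions tested, 21.9% were called lower and 21.2% higher. In 30 member regions the groups did not overlap, 22 of them lower and 8 higher in CuNZ@Gel, beside 68.3% of all regions. After loess, 9 of the 18 lower regions and all 5 higher regions were still called, 1 further region was called higher, and the shares of all regions were 13.8% lower and 18.8% higher. The median change of the 34 regions was -0.43, and -0.08 after loess. Of the 23 called regions, 7 had the same call under each of the 13 alternative settings: Cd14 regions 1 and 2, Ly96 region 1, Ticam1 region 1 and Irak2 region 6 were lower, and Irak4 region 3 and Irak3 region 1 were higher. Of these, Cd14 region 1, Irak4 region 3 and Irak3 region 1 were listed through the peaks of 1 group alone. Every setting used that same listing, so agreement among settings is no independent check of their calls.

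**Figure D2:**
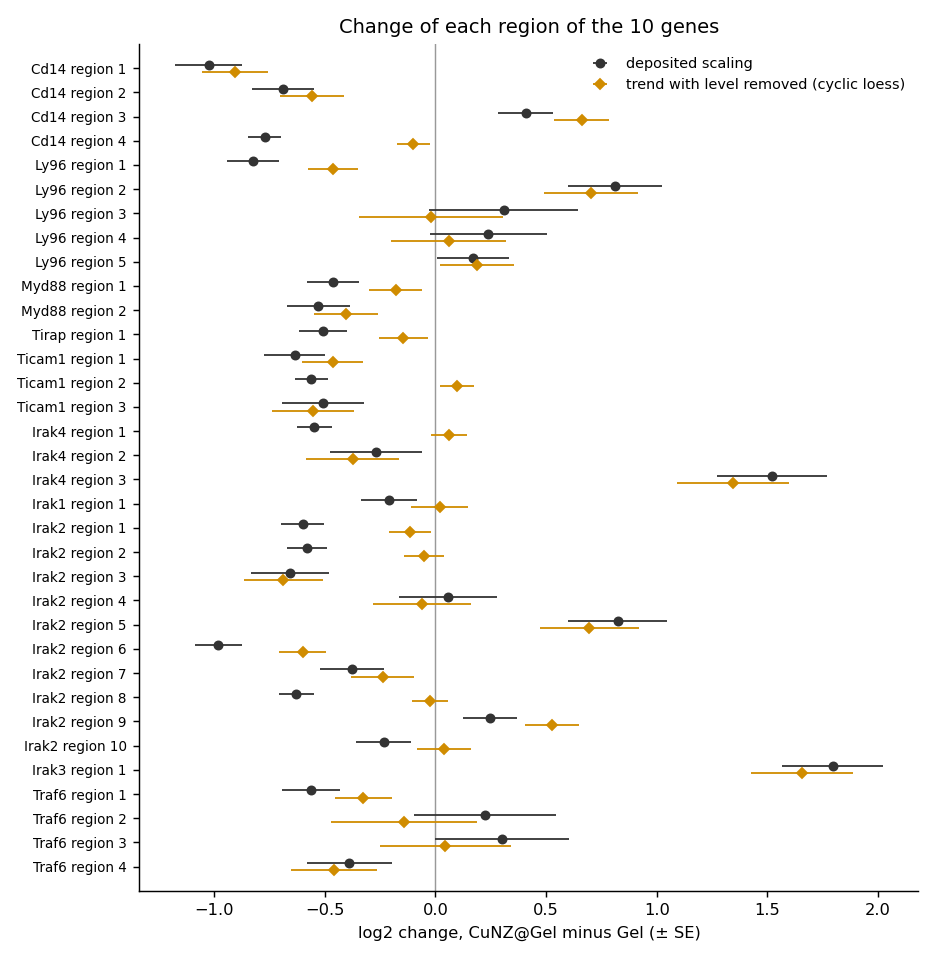
Log2 change (CuNZ@Gel minus Gel, ± SE) of each of the 34 regions with the deposited scaling (dark circles) and after removal of the trend with level by cyclic loess (yellow diamonds). Irak3 region 1 and Irak4 region 3 lie above 1 in both, and the changes of Cd14 region 4, Irak4 region 1 and Irak2 region 8 move close to 0 after loess.

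**Figure D3:**
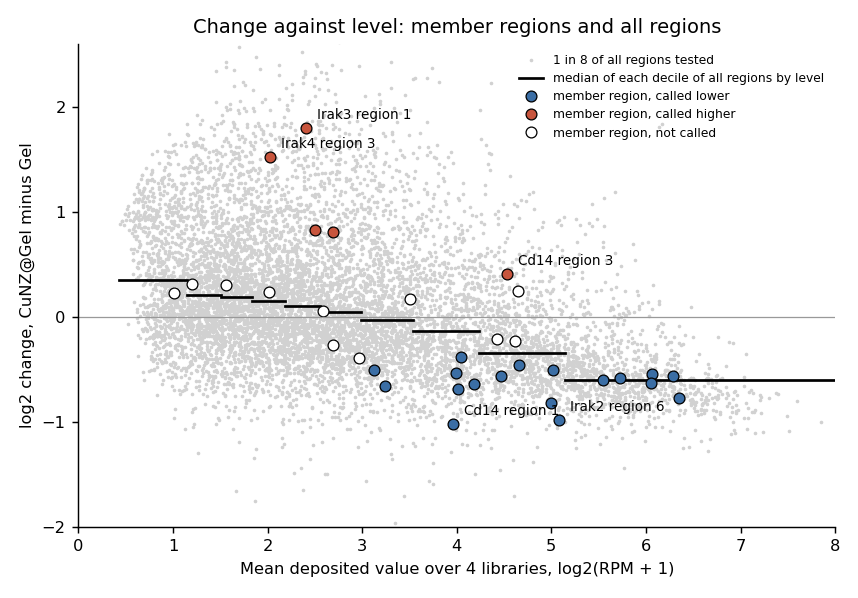
Log2 change against mean log2(RPM + 1) over the 4 libraries, for 1 in 8 of all regions (grey) and the 34 member regions (blue lower, red higher, white not called), with black lines at the median of each decile of all regions. The 6 member regions in the highest decile sit near its median of -0.60.

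The member regions can be read against the deciles of level. All 6 member regions in the highest decile by level were called lower, and none of them was called after loess. In the next decile, where the median was -0.34, 55.8% of all regions were lower and 12.1% higher. There 5 of 9 member regions were lower and 1 was higher, and 3 were lower and 2 higher after loess. All 5 member regions in the decile below that were lower, beside 30.4% of its regions, and 4 of them were still called after loess. The shares of all regions called after loess were not counted by decile. In decile 7 from the lowest, 2 of 3 member regions were lower, beside 17.56% of its regions. In deciles 4, 5 and 6, 1 of 2, 2 of 2 and 1 of 4 were higher, beside 24.78%, 25.12% and 25.75%.

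Cd14 had 4 regions on chromosome 18 (GRCm39) over a span of 14653 bases, and its sum was 162 and 168 RPM in Gel and 104 and 113 RPM in CuNZ@Gel. Both CuNZ@Gel values were lower than both Gel values (change -0.60 ± 0.06, limma adjusted p = 3.37e-08). After loess the change of the sum was -0.12 and not called. The regions did not move together. Region 4 (chr18:36858726-36861122) was the widest member region at 2397 bases and held 63.8% of the summed RPM in Gel. It measured 105.0 and 105.7 RPM in Gel and 60.5 and 62.1 RPM in CuNZ@Gel, a change of -0.77 that became -0.10 after loess and was then not called. Region 1 (chr18:36846470-36846781) measured 19.5 and 23.0 RPM in Gel and 8.25 and 11.8 RPM in CuNZ@Gel. Its fall, -1.03 ± 0.15 (adjusted p = 1.93e-07), was the largest of the 34 regions with the deposited scaling and was -0.91 after loess. It was listed through peaks of the Gel libraries alone, which selects toward a higher value in Gel, so its test is not independent of its listing. Region 2 (chr18:36848751-36849187) went from 18.7 and 20.3 RPM to 11.9 and 11.6 RPM, a change of -0.69, or -0.56 after loess. Region 3 (chr18:36852502-36853643) went the other way, from 19.1 RPM in both Gel libraries to 23.6 and 27.7 RPM, so its share of the summed RPM rose from 11.5% to 23.6%. Its rise of 0.41 ± 0.12 (adjusted p = 0.00593) was 0.66 after loess, missed the threshold when Gel replicate 1, Gel replicate 2 or CuNZ@Gel replicate 2 was left out (adjusted p = 0.0506, 0.0524 and 0.0664), and was a fall of -0.60 when scaled to the background pileup.

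Ly96 had 5 regions on chromosome 1 over 59733 bases, and its sum was 58.0 and 60.1 RPM in Gel and 47.3 and 47.6 RPM in CuNZ@Gel. The fall was -0.31 ± 0.08 (adjusted p = 0.00243), the smallest of the 8 that passed, and it was not called with median-of-ratios scaling (-0.18), total reads (-0.03) or loess (-0.13). Region 1 (chr1:16758303-16759911) measured 40.5 and 42.6 RPM in Gel and 19.4 and 27.3 RPM in CuNZ@Gel, lower in both libraries, with a change of -0.82 ± 0.12 (adjusted p = 6.80e-08) and -0.46 after loess. Region 2 (chr1:16766691-16767177) measured 4.61 and 3.22 RPM in Gel and 8.73 and 6.49 RPM in CuNZ@Gel. It was higher in both, by 0.81 ± 0.21 (adjusted p = 0.00159), and the call was lost without Gel replicate 2 (adjusted p = 0.0844) or CuNZ@Gel replicate 1 (adjusted p = 0.0558). Scaled to the background pileup its change was -0.081 and not called. Regions 3, 4 and 5 did not pass the test, with changes of 0.31, 0.24 and 0.17. Regions 3 and 4 rested on 7 to 50 reads per library, and their groups overlapped. Region 1 held 70.4% of the summed RPM in Gel and 49.2% in CuNZ@Gel.

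Among the adaptor genes, Myd88 had 2 regions on chromosome 9, and its sum was 47.2 and 46.1 RPM in Gel and 33.1 and 32.3 RPM in CuNZ@Gel. Both CuNZ@Gel values were lower (change -0.50 ± 0.09, adjusted p = 9.49e-05). Region 1 (chr9:119163367-119164072) measured 28.3 and 28.8 RPM in Gel and 21.5 and 19.5 RPM in CuNZ@Gel, a change of -0.46 that was -0.18 and not called after loess. Region 2 (chr9:119168866-119169331) measured 19.0 and 17.3 RPM in Gel and 11.6 and 12.9 RPM in CuNZ@Gel. Its change of -0.53 was -0.40 after loess (adjusted p = 0.0228) and missed the threshold without Gel replicate 1 (adjusted p = 0.0690). With total reads in regions neither region was called, at -0.19 for region 1 and -0.26 for region 2 (adjusted p = 0.209 and 0.139). The next region along the chromosome, 532 bases away, was assigned to Acaa1a, so the boundary between the genes is close here.

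Tirap had 1 region (chr9:35110573-35111836) of 1264 bases, with peaks in all 4 libraries. It measured 38.0 and 37.1 RPM in Gel and 27.6 and 24.6 RPM in CuNZ@Gel, lower in both. The gene's change was -0.51 ± 0.10 (adjusted p = 0.000289), and -0.14 after loess and -0.23 with total reads, not called in either.

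Ticam1 had 3 regions on chromosome 17 over 14639 bases, and all 3 were called lower. Its sum was 124 and 126 RPM in Gel and 80.8 and 86.0 RPM in CuNZ@Gel, with no overlap (change -0.58 ± 0.06, adjusted p = 1.41e-07). After loess the change of the sum was -0.055 and not called. Region 2 (chr17:56583186-56584618) held 75.2% of the sum in Gel and measured 93.9 and 94.3 RPM in Gel and 62.7 and 64.2 RPM in CuNZ@Gel. Its change of -0.56 became 0.10 after loess and was not called. Region 1 (chr17:56576195-56576447) measured 20.6 and 22.7 RPM in Gel and 12.3 and 15.02 RPM in CuNZ@Gel, a change of -0.64 that was -0.46 after loess and was called under every alternative run. Region 3 (chr17:56590191-56590833) measured 9.97 and 8.85 RPM in Gel and 5.82 and 6.84 RPM in CuNZ@Gel. Its change of -0.51 (adjusted p = 0.0215) was not called with total reads in regions (adjusted p = 0.280), or when Gel replicate 1, Gel replicate 2 or CuNZ@Gel replicate 1 was left out (adjusted p = 0.231, 0.0777 and 0.0907).

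Among the kinase genes, Irak4 had 3 regions on chromosome 15 over 23130 bases that went different ways. Its sum was 84.9 and 89.9 RPM in Gel and 65.8 and 64.5 RPM in CuNZ@Gel, a change of -0.42 ± 0.07 (adjusted p = 3.70e-05). The change of the sum was -0.14 with total reads (adjusted p = 0.107) and turned to 0.094 after loess, not called in either. Region 1 (chr15:94440929-94441936) measured 76.9 and 82.8 RPM in Gel and 54.5 and 54.2 RPM in CuNZ@Gel. Its change of -0.55 was 0.059 and not called after loess. Region 3 (chr15:94463885-94464058) lay 22956 bases from the start of region 1 and measured 1.34 and 1.49 RPM in Gel and 6.67 and 5.24 RPM in CuNZ@Gel, 23 and 24 reads against 55 and 59. Both CuNZ@Gel values were higher, by 1.52 ± 0.25 (adjusted p = 1.51e-06) and by 1.34 after loess, and the ratio of the group means was 4.22. Region 3 held 1.62% of the summed RPM of Irak4 in Gel and 9.14% in CuNZ@Gel. Region 2 (chr15:94455428-94455927) measured 6.59 and 5.63 RPM in Gel and 4.73 and 5.06 RPM in CuNZ@Gel, and its change of -0.27 did not pass the test (adjusted p = 0.32). Peaks were called in region 2 in the Gel libraries alone, with deposited fold enrichments of 15.02 and 12.85, and in region 3 in the CuNZ@Gel libraries alone, at 7.70 and 6.71. Each of these regions was thus selected toward higher values in the group with the peaks. The tests of regions 2 and 3 are therefore not independent of their listing.

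Irak1 had 1 region (chrX:73066801-73067881) with peaks in all 4 libraries. It measured 21.5 and 22.6 RPM in Gel and 18.3 and 19.6 RPM in CuNZ@Gel. The CuNZ@Gel values were lower without overlap, but the change of the gene, -0.21 ± 0.12, did not pass the test (adjusted p = 0.152). Scaled to the background pileup it was called lower, at -1.22.

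Irak2, which encodes the kinase that sustains the MyD88 signal, had 10 regions on chromosome 6 over 39558 bases and the largest sum of the 10 genes. The sum was 337 and 329.8 RPM in Gel and 233 and 237 RPM in CuNZ@Gel, with a change of -0.50 ± 0.04 (adjusted p = 3.08e-09) that was -0.08 and not called after loess. Of its regions, 6 were called lower, 1 higher and 3 neither. Regions 1, 2 and 8, each between 55.6 and 84.0 RPM in Gel and between 33.6 and 54.3 RPM in CuNZ@Gel, changed by -0.60, -0.58 and -0.63, and by -0.11, -0.052 and -0.024 after loess. Region 6 (chr6:113637436-113638949) stood apart from these. It measured 46.1 and 47.3 RPM in Gel and 21.5 and 25.0 RPM in CuNZ@Gel, a ratio of 0.497 between the group means. Its change was -0.98 ± 0.11 (adjusted p = 7.96e-11) and -0.60 after loess (adjusted p = 2.16e-06).

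Other regions of Irak2 moved the opposite way or less. Region 5 (chr6:113635222-113635428) measured 3.38 and 3.16 RPM in Gel and 8.0 and 5.33 RPM in CuNZ@Gel. It was higher in both CuNZ@Gel libraries, by 0.82 ± 0.22 (adjusted p = 0.00214) and by 0.69 after loess. It was listed through a peak of CuNZ@Gel replicate 1 alone, which selects toward a higher value in that library. The call was lost without CuNZ@Gel replicate 1, where the change was 0.57, or with the background pileup as scale, where it was -0.049. Region 9 (chr6:113651999-113652636) measured 23.1 and 20.9 RPM in Gel and 23.2 and 29.7 RPM in CuNZ@Gel. Its change of 0.25 did not pass the test (adjusted p = 0.105), but it was called higher after loess (0.53), with total reads (0.52) and without CuNZ@Gel replicate 1 (0.42), and called lower when scaled to the background pileup (-0.77, adjusted p = 0.00714). Region 3 (chr6:113627033-113627593) measured 11.2 and 10.5 RPM in Gel and 5.82 and 7.29 RPM in CuNZ@Gel, a change of -0.66 that was -0.69 after loess and missed the threshold without Gel replicate 1 (adjusted p = 0.0547) or with total reads, at -0.40 (adjusted p = 0.0649). Region 7, with a change of -0.38, was not called after loess or without Gel replicate 1, Gel replicate 2 or CuNZ@Gel replicate 2 (adjusted p = 0.0896, 0.227 and 0.263), and it was -0.20 without the last of these and -0.11 and not called with total reads (adjusted p = 0.58). Regions 4 and 10 changed by 0.058 and -0.23 and did not pass the test.

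**Figure D4:**
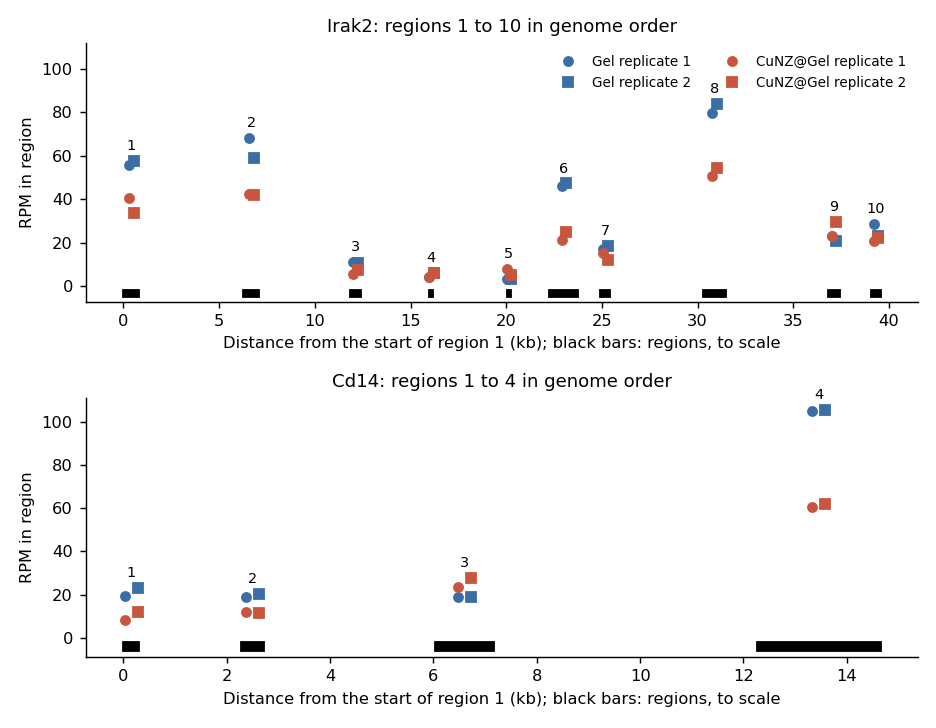
RPM of each library in the regions of Irak2 and Cd14, plotted by distance from the start of region 1 in kb, with black bars for the regions to scale (circles replicate 1, squares replicate 2). In Irak2, region 6 drops below 26 RPM in CuNZ@Gel while region 9 stays at or above 23 RPM, and in Cd14, regions 1, 2 and 4 fall while region 3 rises with the deposited scaling (Irak2 region 9 and Cd14 region 3 are called lower when scaled to the background pileup).

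Irak3 had 1 region (chr10:120040558-120040814) of 257 bases. It measured 2.274 and 1.485 RPM in Gel and 9.09 and 8.71 RPM in CuNZ@Gel, from 39, 24, 75 and 98 reads. Both CuNZ@Gel values lay above both Gel values, with a ratio of 4.74 between the group means. The change of the region was 1.79 ± 0.23 (adjusted p = 4.69e-09) and that of the gene the same (adjusted p = 1.31e-06), since the gene has 1 region. It was 1.66 after loess, 0.97 when scaled to the background pileup and 1.596 to 1.994 when a library was left out, and it was called each time. The CuNZ@Gel peak lists had a peak here with deposited fold enrichments of 6.01 and 4.65, and the Gel lists had none. A region listed through the peaks of 1 group alone, such as this one, Irak4 region 3, Irak2 region 5 or Cd14 region 1, was selected toward higher values in that group, so its test is not independent of its listing. Neighbouring regions 2026 and 3677 bases away were assigned to Gm38500 and Tmbim4, so the assignment to Irak3 rests on the authors' choice of nearest gene.

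Traf6 had 4 regions on chromosome 2 over 55054 bases, with a sum of 35.3 and 37.5 RPM in Gel and 24.7 and 29.2 RPM in CuNZ@Gel. The change was -0.42 ± 0.11 (adjusted p = 0.00211), and with total reads in regions it was -0.15 and not called (adjusted p = 0.256). Region 1 (chr2:101508454-101509375) measured 25.4 and 26.4 RPM in Gel and 14.8 and 20.0 RPM in CuNZ@Gel, lower in both, by -0.56 ± 0.13 (adjusted p = 0.000350) and -0.33 after loess (adjusted p = 0.0415). The change was -0.36 without CuNZ@Gel replicate 1, and with total reads in regions it was -0.29 and not called (adjusted p = 0.0665). Region 4 (chr2:101562903-101563507) measured 7.41 and 8.48 RPM in Gel and 5.22 and 6.49 RPM in CuNZ@Gel, and its change of -0.39 did not pass the test (adjusted p = 0.102). Regions 2 and 3 had 8 to 31 reads per library and changes of 0.22 and 0.30 that did not pass.

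Peaks were called in all 4 libraries in 20 of the 34 regions. Peaks were called in both Gel libraries alone in 3 regions, Cd14 region 1, Irak4 region 2 and Traf6 region 3, and in both CuNZ@Gel libraries alone in 2, Irak3 region 1 and Irak4 region 3. The matching shares of all regions were not counted, so these counts show no trait of the members. Each Gel list was longer (61757, 59251 peaks) than either CuNZ@Gel list (42612, 53273 peaks), and the Gel libraries had more reads in regions. The part of depth in the presence of a peak was not tested. The presence of a peak did not always follow the RPM. Irak4 region 2 and Traf6 region 3 did not pass the test, and Traf6 region 3 had its highest value, 3.76 RPM, in CuNZ@Gel replicate 1, where no peak was listed. Cd14 region 1, Irak3 region 1 and Irak4 region 3 passed the test. They were listed through the peaks of the group where they are higher, so their tests are not independent of the peaks. The fold enrichments are the authors' own and describe a peak within its list.

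Of 45 further genes of the pathway, 43 had regions, and Tlr11 and Tlr12 had none. Of the 43, 28 were lower, 5 were higher and 10 did not pass, with a median change of -0.36, beside 36.1% lower, 20.5% higher and a median of -0.10 over all genes. After loess 8 were lower and 7 higher, beside 15.9% and 20.2% of all genes. Of the 10 receptor genes with regions, 7 were lower and 1 was higher, and after loess 3 were lower and 1 was higher. The largest fall among the receptors was that of Tlr2, which recognises bacterial lipopeptides, from 236 and 251 RPM to 156 and 168 RPM (-0.58, and -0.28 after loess). The rise was that of its partner receptor Tlr1, from 8.40 and 7.74 RPM to 10.4 and 12.5 RPM (0.46, adjusted p = 0.0262, and 0.17 and not called after loess, and -0.50 and not called with the background pileup as scale). Tlr4, the lipopolysaccharide receptor that acts with CD14 and MD2, went from 127 and 120.3 RPM to 107 and 114 RPM, a change of -0.16 that passed the test (adjusted p = 0.0242) and was -0.05 and not called after loess. It was named after its values were seen.

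Of 6 genes for accessory and trafficking proteins, 4 were lower and 0 higher, beside 36.1% and 20.5% of all genes. After loess 0 of the 6 were called lower and 0 higher, beside 15.9% and 20.2% of all genes. Hsp90b1, which encodes a chaperone that folds Toll-like receptors, had the largest fall, from 170 and 154 RPM to 90.7 and 99.0 RPM (-0.76, and 0.05 after loess). All 3 other adaptor genes were lower, and after loess 1 of them was. Ticam2, which encodes the adaptor that bridges TLR4 to TRIF, went from 41.4 and 39.7 RPM to 23.3 and 23.8 RPM, and its change of -0.76 was -0.69 after loess and still called (adjusted p = 5.03e-06).

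Of 17 downstream kinase and ubiquitin enzyme genes, 11 were lower and 2 were higher, beside 36.1% and 20.5% of all genes. After loess 3 of the 17 were lower and 3 higher, beside 15.9% and 20.2% of all genes. Ube2n, which encodes the ubiquitin-conjugating enzyme that works with TRAF6, fell from 117 and 116 RPM to 70.0 and 76.1 RPM (-0.67, and -0.07 after loess). Ikbke, which encodes a kinase related to TBK1, rose from 108 and 105 RPM to 134 and 132 RPM (0.32, and 0.46 after loess, but -0.73 when scaled to the background pileup). Of 7 inhibitor genes, 3 were lower and 2 higher, and after loess 1 was lower and 3 were higher. Tollip, which encodes a protein that binds IRAK1, fell from 44.1 and 37.9 RPM to 24.1 and 26.0 RPM (-0.69, and -0.40 after loess). Il1rl1, which encodes the receptor for IL-33, rose from 109 RPM in both Gel libraries to 145 and 147 RPM (0.42, and 0.66 after loess, but -0.63 when scaled to the background pileup).

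**Figure D5:**
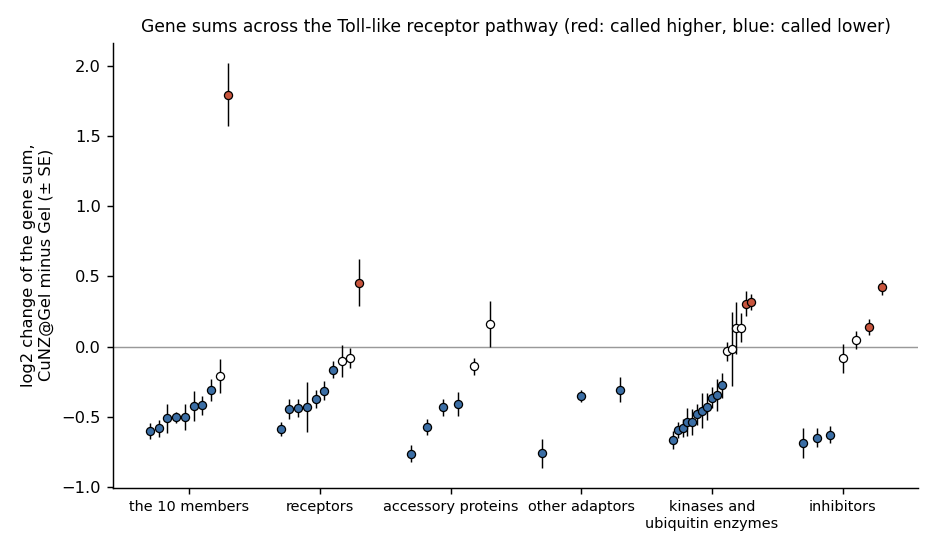
Log2 change (CuNZ@Gel minus Gel, ± SE) of the summed accessibility of the 10 member genes and of 43 further pathway genes by group, with the deposited scaling (blue lower, red higher, white not called). Each group has more blue than red points with this scaling, whereas after loess 8 of the 43 were lower and 7 higher, and Irak3 at 1.79 lies above every other gene shown.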

How the data were processed

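ATAC-seq values and peak lists from 4 RAW264.7 libraries were used, grouped by sample title. The submitters' processing notes name the build GRCm39 and, with no roles, MACS2 2.2.8, Picard 2.27.5, SAMtools 1.17, Bowtie2 2.3.4.3 and fastp 0.23.1. The authors deposited log2 values per region, read here as log2(RPM + 1) because 100% of the values below 1.5 RPM fell within 0.1 of a whole read in each library. The scaling factors these values imply are 0.910 and 0.902 in the Gel libraries, and 1.11 and 1.10 in those of CuNZ@Gel. The peak lists the authors deposited give a score, a fold enrichment (a ratio) and the -log10 of a p-value and a q-value for each peak, called per library, and the folds were used to describe peaks.

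Merging the 4 lists (bedtools 2.31.1, gap of at most 1 base) gave 80929 regions in the order of the value tables, which supplied GRCm39 coordinates, counted from 1. The RefSeq gene table names a chromosome for the gene of 77103 regions, and 77101 of them lay on it. The 4 rows with no gene name were left out. Regions were kept that reached 0.710 reads per 1000000 (10 reads at median depth) in 2 or more libraries, and 15 reads in all. They were tested two-sided with limma 3.58.1 in R 4.3.3, with an intensity trend and Benjamini-Hochberg adjustment. Gene values are log2 of the summed RPM + 1, a sum that can hide regions changing in opposite directions. The script was tested on simulated data. These held no trend of change with level and no difference in background between the groups, so that test does not cover either. Alternatives covered scaling, filters, pseudocount, voom, the replicate number and each library left out. The background pileup was recovered from the deposited folds, by the step of which low folds are whole multiples. The share of low folds on that step was 40.2% and 35.1% in the Gel libraries but 9.36% and 11.9% in those of CuNZ@Gel. The recovery, and the scaling built on it, thus rests on a smaller share of folds in CuNZ@Gel. RPM levels rest on 7439710 to 18842296 reads in regions per library, and precision is lowest for regions with few reads.

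The members, gene lists and motifs were chosen with earlier results of these data known. Genes named are all 10 members and, in each of the 5 pathway groups, the called gene with the largest rise and the largest fall, with Actb and Polr2a and the marker genes beside them. Tlr4 was named outside this rule, after its values were seen. Protein sequences and region sequences were not used here.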

Additional observations from a re-analysis of the deposited data

How the results depend on the processing

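Filters, pseudocount and voom changed no call of the 10 genes or of the member regions they tested (30 under the stricter filter). Median-of-ratios scaling ended the call of 1 gene, Ly96, total reads those of Ly96, Tirap, Irak4 and Traf6, and loess those of 6 genes. The deviations of same-numbered libraries from their group means correlated at 0.0146 over all regions and at 0.0444 over regions at or above the median level. A single correlation of this kind cannot show whether the replicate numbers pair the libraries. With the replicate block 16697 regions were higher and 17273 lower, 5600 genes higher and 9671 lower, and no member call changed. With 1 library left out, the lone library of a group being assumed to vary like the other group, 11530 to 14953 regions were higher and 12098 to 16608 lower, 4038 to 5018 genes higher and 7758 to 8985 lower, and 3 to 6 member regions higher (3 without Gel replicate 2) and 14 to 18 lower, while the 10 gene calls held.

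Regions called higher numbered 16314 and lower 16855. Scaling to the background pileup gave 3738 and 46689, total reads 9153 lower and loess 10612 lower. Genes numbered 5319 higher and 9358 lower. Total reads gave 8893 and 4838, the background pileup 718 and 19551, loess 5237 and 4128, and median-of-ratios 6706 and 7181. Member regions numbered 5 higher and 18 lower, against 7 and 11 with total reads, 6 and 9 with loess and 2 and 26 with the background pileup. The cause was not tested.

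Signs turned after loess for the sums of Irak4 (0.094) and Irak1 (0.019), Ly96 region 3 (-0.019), Ticam1 region 2 (0.096), Irak4 region 1 (0.059), Irak1 region 1 (0.019), Irak2 regions 4 (-0.060) and 10 (0.039) and Traf6 region 2 (-0.14). With total reads they turned for the Irak1 sum and region (0.063) and Irak2 region 10 (0.040). Scaled to the background pileup they turned for Cd14 region 3 (-0.60, called lower), Ly96 regions 2 (-0.081), 3 (-0.30), 4 (-0.56) and 5 (-0.80, called lower), Irak2 regions 4 (-0.81, called lower), 5 (-0.049) and 9 (-0.77, called lower) and Traf6 regions 2 (-0.30) and 3 (-0.41). With 1 library left out, changes ranged from -0.35 to 0.97 in Ly96 region 3, from -0.17 to 0.65 in Ly96 region 4 and from -0.24 to 0.84 in Traf6 region 3 (below 0 without CuNZ@Gel replicate 1), and from -0.17 to 0.29 in Irak2 region 4 (below 0 without Gel replicate 1, or at -0.14 without CuNZ@Gel replicate 2). Of these regions, Ly96 regions 3, 4 and 5, Irak1 region 1, Irak2 regions 4, 9 and 10 and Traf6 regions 2 and 3 were not called to begin with.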
